A study of Aspergillus nidulans with 48 samples.

Results

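The genes described here are the menadione-repressed genes of control conidia of *Aspergillus nidulans*. They were chosen from the mean RPKM (reads per kilobase of gene, scaled to the library's counted reads) of the 3 untreated and the 3 menadione-treated conidial libraries of the control strain. A gene was taken when its untreated mean was at least 10 RPKM and was also at least 4 times its mean in the treated libraries, with 0.1 added to both. Of 10988 genes in the table, 5494 reached the level and 143 of them the fold. The 8 that met the same rule in control mycelia, among them *agdB*, were left out, which leaves 135 members. The fall in control conidia is therefore what chose these genes, and it is given below as a description without a test. The mutant strains and the mycelia took no part in finding the fall, except that control mycelia set which genes were left out.

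The series compared 4 strains, namely the Δ*atfA* deletion mutant, the Δ*atfB* deletion mutant, the Δ*atfA*Δ*atfB* double mutant and the control strain THS30.3. Plates of Barratt's agar at 37 °C held menadione sodium bisulfite (MSB), a water-soluble menadione that generates superoxide by redox cycling, or none. The labels print the dose as 0.04 Mm. Conidia and mycelia were collected from each, with 3 libraries per strain, treatment and cell type, 48 together. The double mutant was identified by its titles, because its genotype label gives *atfB* in both places. The study calls the libraries biological replicates, and the labels do not name separate cultures.

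Conidial libraries held 8426329 to 24958904 counts and mycelial libraries 12974631 to 36314359. Replicates 1 and 2 of every conidial group are labelled batch 1 and replicate 3 batch 2, and mycelia formed 1 batch. *atfA* held 10.4, 14.02 and 27.8 RPKM on MSB and 27.2, 26.5 and 67.8 untreated in Δ*atfA* conidia, against 299, 309 and 437 RPKM on MSB and 437, 576 and 521 untreated in control conidia. In untreated Δ*atfA*Δ*atfB* conidia it held 10.4, 16.03 and 21.1 RPKM, and *atfB* 1.94, 2.67 and 2.13 RPKM. Conidial libraries labelled Δ*atfB* kept *atfB* reads, 131, 188 and 257 RPKM on MSB and 241, 216 and 314 untreated, against 253, 246 and 300.1 RPKM on MSB and 253, 307 and 362 untreated in the control. In Δ*atfA* conidia *atfB* held 17.6, 17.1 and 59.2 RPKM on MSB and 56.3, 46.8 and 41.4 untreated. Conidial comparisons of Δ*atfA* with the libraries labelled Δ*atfB* thus differ in the reads of both genes. In Δ*atfB* mycelia *atfB* had 1.23, 0.496 and 0.743 RPKM on MSB and 0.666, 0.860 and 0.787 untreated, against 1.37, 1.54 and 1.46 RPKM on MSB and 3.52, 3.58 and 2.72 untreated in control mycelia. The conidial ones are called the libraries labelled Δ*atfB* throughout, and what is said of them goes by the label alone. Replicate 3 of these libraries on MSB stood apart, with a summed RPKM over the 135 members of 7798, against 2921 and 2566 in replicates 1 and 2. Results that rest on it are also given without it or from batch 1 alone.

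Of 12 spore genes checked, none was at 0 in a conidial group. The catalase gene *catA* had 1.26, 1.08 and 2.102 RPKM in untreated Δ*atfA* conidia and 0.594, 0.906 and 0.726 in Δ*atfA*Δ*atfB* conidia, against 1555, 1766 and 1979.7 in the control, so this spore marker was nearly absent in both strains lacking *atfA*. The 5 hyphal growth genes did not all behave alike. Nitrate reductase *niaD* stayed at or below 13.4 RPKM in all conidial libraries, against 539 to 645 RPKM in untreated control mycelia. The chitin synthase gene *chsB*, in contrast, had 263, 275 and 219 RPKM in untreated Δ*atfA* conidia, against 67.9, 63.4 and 72.6 in untreated control conidia and 194, 134 and 184 in untreated control mycelia. The mycelial catalase gene *catB* had 164, 189.7 and 78.3 RPKM on MSB against 122, 116 and 56.5 untreated in Δ*atfA* conidia. In control mycelia it had 1372, 1235 and 1090 RPKM on MSB against 209, 227 and 180.4 untreated. Mycelia of Δ*atfA* had 1046, 842 and 999.5 RPKM of *catB* on MSB against 63.4, 37.4 and 25.6 untreated. The summed level of the 5 genes in control conidia was 153 to 263 RPKM on MSB, against 116 to 130 RPKM untreated, and in Δ*atfA* conidia it was 316 to 472 against 287 to 406 RPKM.

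As background, conidia are the airborne asexual spores of this fungus, and AtfA is a bZIP transcription factor known for the stress tolerance of its spores. Several members belong to systems with a known biology. The *mdp* cluster makes the polyketide monodictyphenone, and the *xpt* prenyltransferases turn its intermediates into prenyl xanthones. α-1,3-glucanases degrade the α-1,3-glucan of the cell wall, and MutA is the glucanase of Hülle cells, the thick-walled nurse cells of the sexual fruiting body, where xanthones have also been found. Dehydrin-like proteins are linked to desiccation tolerance of spores.

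Taken over all members, the summed level was 4475, 4328 and 4337 RPKM in MSB-treated control conidia, against 41073, 26531 and 20509 RPKM untreated. The treated libraries lay close together, while the untreated ones were more spread, with replicate 1 highest and no overlap between the groups. Untreated means ran from 10.01 to 5830.4 RPKM with a median of 33.1. The fold of untreated over MSB had a median of 7.93 and a maximum of 84.7. In all 135 members every MSB library lay below every untreated one, which held for 22.9% of the 10143 genes tested in conidia. Within batch 1 alone 133 members reached the 4-fold difference, and within batch 2, with 1 library per group, 94 did. Without untreated replicate 1 the rule would find 100 of the 135 members again, and without any other single library 126 to 133 of them. In bulk samples, fewer cells of a type and less RNA per cell cannot be told apart. Just inside the fold lay AN7138, AN2004 and AN0234 with ratios of 4.03, 4.04 and 4.04, and just outside AN0759, AN2099 and AN10898 with 3.99, 3.95 and 3.94.

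The most abundant members were genes with high levels in untreated spores. *dlpA* (AN5324), for a dehydrin-like protein, had 1419, 1198 and 951 RPKM in MSB-treated control conidia, against 6925, 5423 and 5144 RPKM untreated. AN0468, of unknown function, had 623, 649 and 639 RPKM against 8190.5, 5175 and 2913 RPKM untreated. AN0483 averaged 416 ± 86.4 RPKM against 2167 ± 379, AN10977 359.9 ± 6.78 against 1775 ± 836, and AN10581 216 ± 50.9 against 1226 ± 486 (SD, n = 3 each). The folds of these genes, between 4.90 for *dlpA* and 8.52 for AN0468, lay around or below the median of the members except for AN0468.

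**Figure D1:**
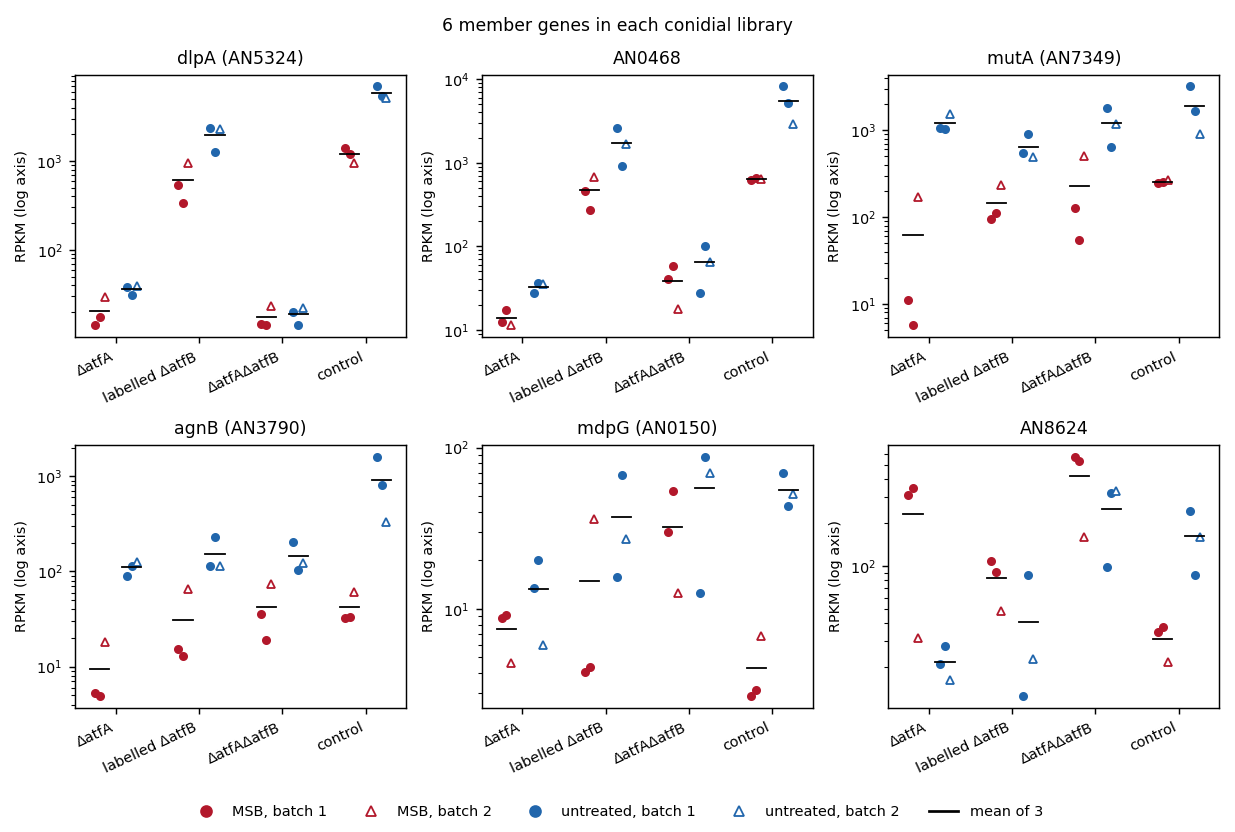
RPKM on a log axis of 6 members in the 24 conidial libraries, by strain, with MSB-treated libraries (red) left of untreated ones (blue), filled circles for batch 1, open triangles for batch 2 and a black line for the mean of 3. *dlpA* and AN0468 lie low in both treatments where *atfA* is deleted, *mutA* has a lower mean on MSB in every strain, and AN8624 lies above its untreated level on MSB in Δ*atfA* conidia.

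The *mdp* cluster gave 10 of its 12 listed genes to the members, as a run of neighbouring genes on chromosome VIII. *mdpG*, the polyketide synthase that starts the pathway, had 2.90, 3.16 and 6.82 RPKM in MSB-treated control conidia, against 69.4, 43.4 and 51.3 RPKM untreated. The highest of the run was *mdpC*, a ketoreductase, with 13.5, 14.7 and 38.5 RPKM against 421, 276 and 229 RPKM untreated. Summed over the 10 genes the level was 38.5, 42.8 and 160.3 RPKM on MSB, against 1966, 1147 and 980.1 RPKM untreated, and the batch 2 library was the highest of the treated ones. *mdpB* (dehydratase), *mdpF* (hydrolase), *mdpH*, *mdpJ* (glutathione S-transferase-like), *mdpK* (oxidoreductase), *mdpL* and the monooxygenase gene *mdpD* had folds between 11.6 and 25.4. The cluster's own activator gene *mdpE* was the least abundant member of the run and had the smallest fold, with 1.12, 1.85 and 2.50 RPKM against 13.8, 7.56 and 9.22 RPKM untreated.

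Outside the run, the prenyltransferase genes *xptA* and *xptB* averaged 4.19 ± 4.11 and 10.4 ± 10.04 RPKM on MSB, against 59.04 ± 19.4 and 208 ± 79.1 RPKM untreated (SD, n = 3 each). AN7999, an oxidoreductase gene listed in the cluster of *xptB*, was the most abundant of the xanthone-related members with 6.88, 6.33 and 47.1 RPKM, against 597, 387 and 323 RPKM untreated. In all, 23 members were on the study's lists of secondary metabolism clusters, including AN8106, AN11049 and AN8110 of the AN8105 cluster, *salA* and AN3384 of the *pki* cluster, and *CYP5095B1* and AN12291 of the AN7084 cluster.

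The α-1,3-glucanase genes among the members were 3. *mutA* (AN7349) had 247, 251 and 265 RPKM in MSB-treated control conidia, against 3176, 1679.7 and 899 RPKM untreated. *agnB* (AN3790) had 32.4, 33.5 and 60.2 RPKM against 1594, 806 and 334 RPKM untreated, and *agnC* (AN9042) 99.4, 96.5 and 79.1 RPKM against 1103, 641 and 368. In each of them untreated replicate 1 was the highest and untreated replicate 3, of batch 2, the lowest of the untreated libraries. Near *mutA* on chromosome IV lay a run of 4 members, AN7346, AN7345, AN7344 and AN7343, of which AN7345 is on the carbohydrate-active enzyme list and AN7343 encodes a zinc cluster transcription factor. AN7345 had 22.2, 22.8 and 37.2 RPKM on MSB, against 504, 229 and 108.5 RPKM untreated. The α-amylase genes *amyB* and *amyD* and AN6620 brought the carbohydrate-active enzymes among the members to 7 of 399 listed.

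The 2 largest folds belonged to genes without a described function. AN11097 had 0.370, 0.0633 and 0.162 RPKM on MSB, against 41.7, 22.5 and 11.3 RPKM untreated, and its neighbour AN8584 0.353, 0.544 and 0.466 against 48.7, 25.6 and 13.9. AN11049, with an NmrA-like domain, AN8106, a predicted dioxygenase gene, AN8466, AN6668, AN8101 and AN5430 followed with folds between 33.5 and 50.3. Among members with a name, *calA*, for a thaumatin-like protein of the germinating spore's wall, had 11.7, 10.04 and 15.6 RPKM against 214, 117 and 92.5 RPKM untreated. *agd3*, whose *A. fumigatus* counterpart deacetylates the exopolysaccharide galactosaminogalactan, averaged 1.07 ± 0.200 against 11.6 ± 4.49 RPKM, and *aspf13* 62.1 ± 17.96 against 418 ± 202. *xanB* and its neighbours AN2607 and AN2608 had folds of 7.501, 12.1 and 14.5. Of the lists of antioxidative enzymes and of the pentose phosphate pathway, AN6457, with a peroxidase domain, and AN9443, on the pentose phosphate list, were the members.

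Of the 124 members that the ASM1142v1 gene table places, 41 fell into 14 runs of neighbours with at most 1 other gene between them. Besides the *mdp* run and the run near *mutA*, they were runs of 3 around *xanB*, AN8584 and AN7222, and 9 pairs, among them *agnB* with AN3791 and *agnC* with AN9041. The remaining 83 stood alone.

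In Δ*atfA* conidia the response to MSB was a contrast of libraries that the selection did not use. The control libraries were part of the same fit, with a common batch term and estimate of spread. Of the 135 members, all of which passed the filter on low values, 32 fell and 4 rose, where a call means a log2 fold change of over 1 in size at an edgeR adjusted p under 0.05. Over all 10143 genes 8.68% fell and 6.38% rose. The median log2 fold change was −0.95 over the members and −0.02 over all genes. Every MSB library lay below every untreated one for 51 members, against a background of 18.4%, and above it for 4, against 14.8%. From batch 1 alone 42 fell and 10 rose, and without MSB replicates 1 or 2 the falls numbered 17 and 19. Here and below, shares of all genes called are given for the main fit alone. Member counts under other settings therefore have no such share beside them. Since each member was chosen for a high untreated level in control conidia, all passed the filter, and the counts describe the list without testing it.

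The α-1,3-glucanase genes were among the largest falls in Δ*atfA*. *mutA* had 11.04, 5.71 and 169 RPKM on MSB, against 1070.1, 1028 and 1550.0 RPKM untreated (log2 fold change −4.80 ± 0.95 SE, adjusted p = 0.001). The groups did not overlap, although the batch 2 library kept more than the others. *agnB* had 5.28, 4.95 and 18.1 RPKM against 90.3, 115 and 126 (log2 fold change −3.65 ± 0.66 SE, adjusted p = 0.00057), and *agnC* 9.69, 5.23 and 37.6 against 234, 228 and 129 (log2 fold change −3.64 ± 0.81 SE, adjusted p = 0.0023). All 4 genes of the run near *mutA* fell as well. AN7344 had 13.3, 11.2 and 56.99 RPKM against 279, 289 and 733 (log2 fold change −4.07 ± 0.47 SE, adjusted p = 2.1e-05), and its untreated level was above that of the control, whose libraries held 116, 96.96 and 61.2 RPKM. The peroxidase-domain gene AN6457 had the largest fall in the fit, with 0, 0 and 0.127 RPKM against 1.56, 2.41 and 0.388 (log2 fold change −4.99 ± 1.27 SE, adjusted p = 0.0055), with treated levels close to 0. AN6668 fell by 3.74 on the log2 scale, a call lost without MSB replicate 1 or 2.

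The 4 members that rose in Δ*atfA* had no described function. AN8624 had 311, 347 and 31.5 RPKM on MSB, against 20.9, 27.98 and 16.3 RPKM untreated (log2 fold change 3.25 ± 0.70 SE, adjusted p = 0.0019). The increase was large in both batch 1 libraries and small in batch 2. The neighbours AN8439 and AN11079 rose by 3.95 and 4.02 on the log2 scale, but their batch 2 library on MSB lay within the untreated range, with AN11079 at 9.65, 9.83 and 0.210 RPKM against 0.0859, 0.298 and 0.502. AN6831 had 92.98, 106.4 and 45.9 RPKM against 32.4, 36.8 and 18.9 (log2 fold change 1.53 ± 0.34 SE, adjusted p = 0.0021), higher in every treated library.

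The *mdp* genes gave no call in Δ*atfA*. Their summed level was 101.5, 108.3 and 51.3 RPKM on MSB, against 229, 419 and 118 RPKM untreated, so every treated library lay below every untreated one, the lowest untreated library being of batch 2. None of the 10 was called by edgeR, 1 had an unadjusted p below 0.05, and DESeq2 and limma called none either. From batch 1 alone *mdpJ* was called lower (log2 fold change −2.72 ± 0.90 SE, adjusted p = 0.025). *dlpA* had 14.2, 17.4 and 29.7 RPKM against 38.4, 31.02 and 39.05, with log2 fold change −0.83 ± 0.34 SE, adjusted p = 0.064 (from batch 1 alone −1.08, adjusted p = 0.025), and AN0468 12.4, 17.3 and 11.3 against 27.4, 36.4 and 35.1, with log2 fold change −1.24 ± 0.51 SE, adjusted p = 0.065. Both were at small fractions of their control levels in either treatment.

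**Figure D2:**
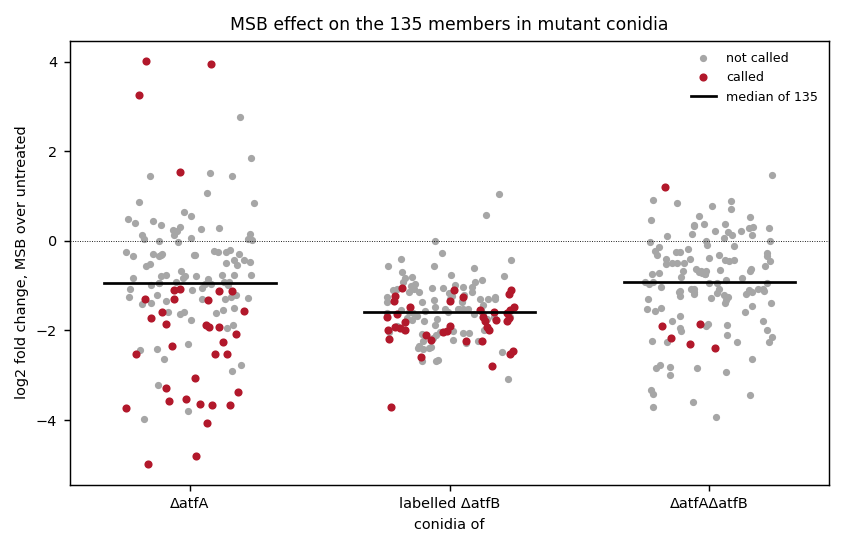
Log2 fold change of MSB over untreated conidia from the edgeR fit for each of the 135 members (points, red where called) in Δ*atfA*, the libraries labelled Δ*atfB* and the Δ*atfA*Δ*atfB* double mutant, with a black line at the median of the members. The medians lie at −0.95, −1.59 and −0.91, and the Δ*atfA* column has the widest spread, with 4 members called higher.

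Among the libraries labelled Δ*atfB*, 41 of 135 members fell on MSB and none rose, against 2.17% and 2.1% of all genes. No member had an unadjusted p below 0.05 in the upward direction, and DESeq2 and limma gave no rise either. Every MSB library lay below every untreated one for 48 members and above for none, against 13.5% and 6.69% of all genes. The median log2 fold change was −1.59 over the members and −0.07 over all genes, and 133 members had a fold change below 0. The count rested on the libraries entered. Without replicate 3 on MSB, 78.5% of the members fell, from batch 1 alone 117 of them did, and without a batch term 1 did. Whether these shifts are particular to the members cannot be read here, since the shares of all genes under these settings are not given. Without MSB replicates 1 or 2 the count was 1 and 0, without untreated replicates 1, 2 or 3 it was 1, 34 and 12.

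The *mdp* genes show this dependence. *mdpG* had 4.09, 4.39 and 35.9 RPKM on MSB, against 15.7, 68.03 and 27.1 RPKM untreated, and *mdpC* 23.1, 19.2 and 230.0 against 91.7, 513 and 167. In batch 1 both treated libraries lay below both untreated ones, whereas in batch 2 the treated library was the higher. None of the 10 *mdp* genes was called by edgeR and none had an unadjusted p below 0.05, with 0 calls by DESeq2 and limma too, while from batch 1 alone all 10 were called lower, at a median log2 fold change of −4.77. The 3 xanthone-related genes outside the run were called lower in batch 1 alone as well, and with both batches edgeR and DESeq2 called 0 of them and limma 1.

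Abundant members were among the 41 that fell in the libraries labelled Δ*atfB*, and *dlpA*, AN0468, AN0483 and AN10977 were all called in batch 1 alone too. *dlpA* had 533, 341 and 950.4 RPKM on MSB, against 2382, 1259 and 2314 RPKM untreated (log2 fold change −1.81 ± 0.35 SE, adjusted p = 0.012). AN0483 had 298, 375 and 968 RPKM against 1888, 921 and 2856 (log2 fold change −1.92 ± 0.45 SE, adjusted p = 0.019). *agnB* had 15.4, 13.1 and 64.99 RPKM against 115, 231 and 113.4 (log2 fold change −2.53 ± 0.64 SE, adjusted p = 0.022) and was the glucanase called with both batches. *mutA* had 95.9, 110.97 and 234 RPKM against 544, 897 and 491 (log2 fold change −2.37 ± 0.83 SE, adjusted p = 0.072), with no overlap and no call. From batch 1 alone all 3 glucanase genes were called lower, *agnB* at −3.60, *mutA* at −2.81 and *agnC* at −2.62 as log2 fold change, with adjusted p-values of 0.00033, 0.0032 and 0.016. AN9027, with a hydrolase domain, and AN11471 fell by 2.80 and 2.47 on the log2 scale. The 4 genes near *mutA* all fell, between 1.59 and 1.98 on that scale. The call of *agnB* was lost without untreated replicate 1 or MSB replicate 1 or 2, that of AN9027 without these or untreated replicate 3, and that of AN11471 without MSB replicate 2, where no member was called. Of the 32 members that fell in Δ*atfA* and the 41 that fell here, 21 were the same genes, 65.6% and 51.2% of the lists. The 2 tests contrast different libraries but come from the same fit, with a common batch term and estimate of spread. The overlap over all genes was not counted, so the shared calls are a description.

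In the Δ*atfA*Δ*atfB* double mutant 5 members fell and 1 rose on MSB, against 0.631% and 0.611% of all genes. The median log2 fold change was −0.91 over the members and 0.01 over all genes. Every MSB library lay below every untreated one for 31 members, against a background of 15.2%, and above for 3, against 9.58%. The 5 that fell were AN7343, AN7344, AN7345 and AN7346 of the run near *mutA* and AN2004, and all 5 also fell in Δ*atfA* and in the libraries labelled Δ*atfB*. AN7344 had 35.5, 28.8 and 115 RPKM on MSB, against 253, 254 and 282 RPKM untreated (log2 fold change −2.30 ± 0.44 SE, adjusted p = 0.011), and AN7343 9.74, 7.43 and 19.4 against 65.9, 40.8 and 56.7 (log2 fold change −2.17 ± 0.40 SE, adjusted p = 0.0097). The groups did not overlap for either gene. DESeq2 called 13 falls and 1 rise, and from batch 1 alone there were 22 and 2. With the replicate number as a block 3 falls were called, without AN7345 and AN7346. The 5 calls did not hold when single libraries were left out, with 0 falls left without MSB replicate 1 or 2, 3 without MSB replicate 3, and 2 without any 1 of the untreated replicates.

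*mutA* had 129, 55.1 and 502 RPKM in MSB-treated Δ*atfA*Δ*atfB* conidia, against 1799, 645 and 1189 RPKM untreated (log2 fold change −2.77 ± 0.86 SE, adjusted p = 0.096), with no overlap and no call. From batch 1 alone it was called lower (log2 fold change −3.70 ± 0.56 SE, adjusted p = 0.00081), as were *agnB* and *agnC*, by 2.47 and 3.24 on the log2 scale. The *mdp* sum was 729.9, 1281 and 261 RPKM on MSB, against 317, 2891 and 2215 RPKM untreated, with treated and untreated libraries interleaved. No *mdp* gene was called in the double mutant by edgeR, DESeq2 or limma, and none had an unadjusted p below 0.05. AN6834, with a transporter domain, was the member that rose, a call absent from batch 1 alone and without untreated replicate 3, with 8.11, 8.55 and 10.97 RPKM against 4.63, 4.33 and 3.45 (log2 fold change 1.20 ± 0.21 SE, adjusted p = 0.0095). AN2116 had 546, 823 and 80.8 RPKM against 74.5, 239 and 135, higher in batch 1 and lower in batch 2, and was not called.

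**Figure D3:**
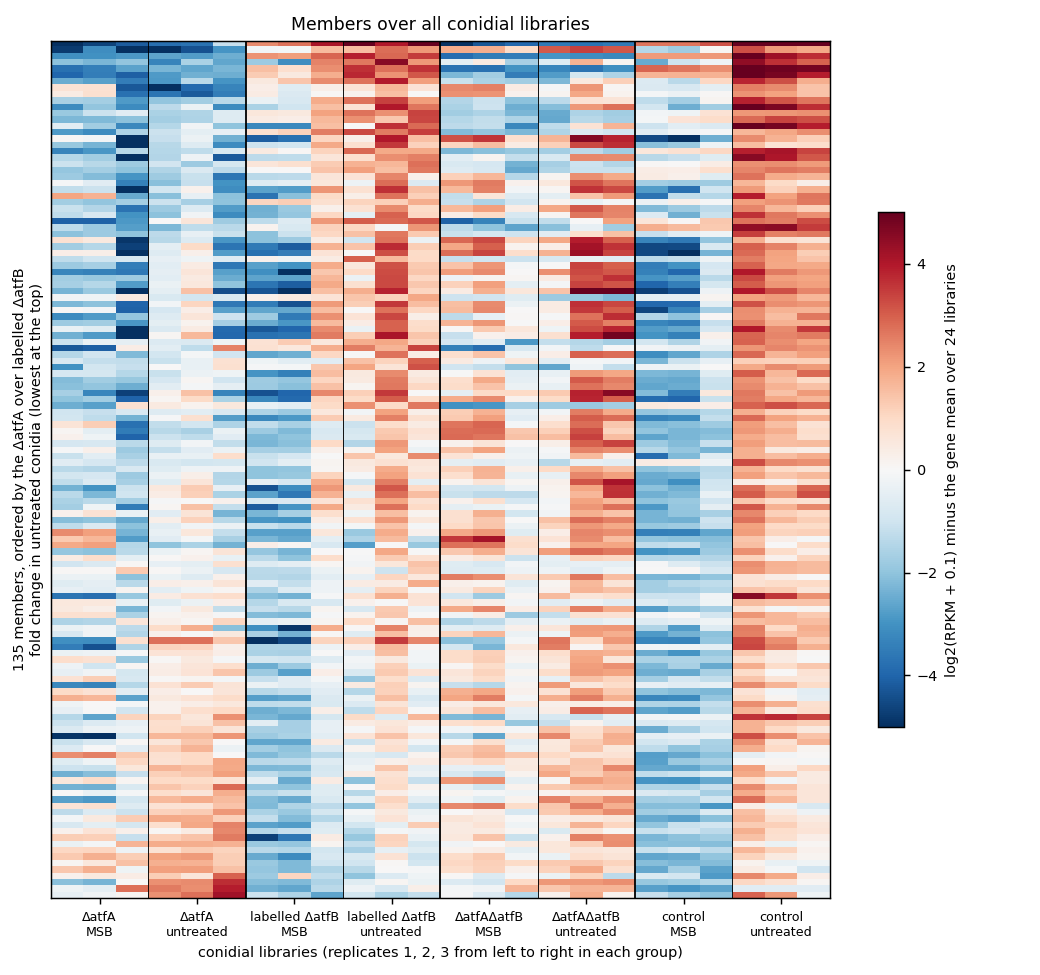
The 135 members (rows) over the 24 conidial libraries (columns), as log2(RPKM + 0.1) minus the gene's mean over these libraries, with the scale ending at 5 in each direction and rows ordered by the fold change of untreated Δ*atfA* over untreated libraries labelled Δ*atfB*. The top rows are low in both treatments of Δ*atfA*, many rows below them are high in untreated replicate 2 labelled Δ*atfB* and untreated replicates 2 and 3 of Δ*atfA*Δ*atfB*, and MSB replicate 3 labelled Δ*atfB* lies above MSB replicates 1 and 2 in most of these rows.

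Strains were compared with each other, since comparisons with the control would reuse the libraries that chose the members. The choice still bears on these comparisons. Members needed a high level in untreated control conidia, and the libraries labelled Δ*atfB* kept *atfA* and *atfB* reads near those of the control. The counts below therefore describe the list without testing it. Untreated Δ*atfA* conidia set against untreated libraries labelled Δ*atfB* had 62 members lower and 12 higher, with 17.6% and 15.7% of all genes. The median log2 fold change was −1.88 over the members and 0.03 over all genes. Without scaling the counts were 50 lower and 20 higher, and the median of all genes moved by 0.45 on the log2 scale. Without untreated replicate 1 labelled Δ*atfB* 6 members were higher.

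Abundant members were among the largest differences. AN0483 had 4.05, 4.29 and 25.8 RPKM in Δ*atfA* conidia, against 1888, 921 and 2856 RPKM in those labelled Δ*atfB* (log2 fold change −8.05 ± 0.60 SE, adjusted p = 1.5e-09). AN10977 had 12.95, 11.6 and 15.1 against 1219, 596 and 934 RPKM (log2 fold change −6.60 ± 0.39 SE, adjusted p = 4.4e-11), and *dlpA* 38.4, 31.02 and 39.05 against 2382, 1259 and 2314 RPKM (log2 fold change −6.26 ± 0.42 SE, adjusted p = 2.9e-10). Of the 12 spore markers 7 were also called lower in untreated Δ*atfA* conidia than in those labelled Δ*atfB* and 5 were not called. *catA*, *conJ* and *ccgA* were low in both strains without *atfA*, with *ccgA* at 27.4, 46.5 and 85.5 RPKM in untreated Δ*atfA* conidia against 17517, 12639 and 15846 in those labelled Δ*atfB*. The spore coat gene *rodA* was among those not called, with 7723, 7249 and 2013 against 4347, 8127 and 3180.4 RPKM. In the double mutant 8 of the 12 were called lower and 2 higher than in the libraries labelled Δ*atfB*, *rodA* and *dewA* being the higher ones. The part of the marker differences in the members' levels was not tested. AN10431 (0.0766, 0.265 and 0.855 against 21.5, 50.8 and 33.2 RPKM) and the prenyltransferase gene AN10289 (0.0614, 0.426 and 0.163 against 9.76, 36.8 and 6.95 RPKM) were nearly silent in Δ*atfA* too.

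Of the 10 *mdp* genes 3 were called lower in Δ*atfA*, and of the 3 other xanthone-related genes 2. They were *mdpB*, *mdpC*, *mdpK*, *xptA* and *xptB*, with log2 fold changes between −3.59 and −2.38. DESeq2 called 7 of the *mdp* genes and limma 1. *xptA* had 9.16, 20.6 and 1.93 RPKM in Δ*atfA* conidia, against 29.5, 222 and 48.8 RPKM in those labelled Δ*atfB* (log2 fold change −3.59 ± 1.34 SE, adjusted p = 0.028). Of the 12 members higher in Δ*atfA*, AN2571 had 38.5, 54.3 and 147 RPKM against 4.15, 2.58 and 3.39 (log2 fold change 4.22 ± 0.70 SE, adjusted p = 4.2e-05), AN8548 132, 106.9 and 327 against 17.9, 12.2 and 26.03 (log2 fold change 2.74 ± 0.47 SE, adjusted p = 5.5e-05), and *calA* 248, 247 and 155 against 51.4, 109.1 and 59.1 (log2 fold change 1.14 ± 0.36 SE, adjusted p = 0.01). *amyB* and AN7344 were also called higher, by 2.34 and 2.57 on the log2 scale, the first without a call when Δ*atfA* replicate 3 or replicate 1 or 2 labelled Δ*atfB* was left out. *mutA* itself was not called (log2 fold change 0.35 ± 0.79 SE, adjusted p = 0.73), with 1070.1, 1028 and 1550.0 RPKM against 544, 897 and 491.

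Untreated Δ*atfA*Δ*atfB* conidia set against the libraries labelled Δ*atfB* gave 32 members lower and 9 higher, with 16.9% and 13% of all genes, and without scaling 27 and 24, with the median of all genes moved by 0.49 on the log2 scale. Without untreated replicate 2 labelled Δ*atfB*, 21 were higher. The median log2 fold change was 0.22 over the members and 0.06 over all genes. Abundant members were again at the low end. *dlpA* had 19.8, 14.4 and 22.4 RPKM in the double mutant (log2 fold change −7.25 ± 0.44 SE, adjusted p = 6.2e-11). AN0483 had 4.86, 4.37 and 4.79 RPKM there and AN0468 27.4, 101.3 and 65.6 RPKM. The xanthone genes were not among the 41 calls. In Δ*atfA*Δ*atfB* conidia *mdpG* had 12.5, 87.4 and 69.3 RPKM untreated and *xptB* 62.4, 416 and 279 RPKM, where replicate 1 was far below the other libraries in both genes. AN8624 and AN7344 were higher in the double mutant by 2.40 and 1.96 on the log2 scale, the first without a call when replicate 3 of the double mutant was left out.

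Set against untreated Δ*atfA*, untreated Δ*atfA*Δ*atfB* conidia had 35 members higher and 7 lower, with 4.98% and 6.49% of all genes. The median log2 fold change was 1.04 over the members and −0.03 over all genes. AN10431 had 62.6, 78.6 and 64.1 RPKM in Δ*atfA*Δ*atfB* conidia, against 0.0766, 0.265 and 0.855 RPKM in Δ*atfA* (log2 fold change 7.24 ± 0.78 SE, adjusted p = 2.1e-05), without overlap. AN11079 had 5.39, 27.2 and 6.17 RPKM against 0.0859, 0.298 and 0.502 (log2 fold change 5.03 ± 0.93 SE, adjusted p = 0.0016), AN8439 was higher by 4.97 and AN8106 by 4.94 on the log2 scale. *mdpB*, *mdpD* and *mdpE* were the *mdp* genes called higher, and *xanB*, AN2607 and AN2608 were all higher. The 35 higher calls became 19 and 18 without Δ*atfA* replicates 1 or 3, and 17 without either Δ*atfA*Δ*atfB* replicate 2 or 3. The 7 lower calls became 4 without Δ*atfA* replicate 3 and 1 without Δ*atfA*Δ*atfB* replicate 3. The lower ones included *calA*, AN8636, a putative transcription factor gene, and AN10297, an NRPS-like gene. The calls of AN8636, AN10297 and AN8106 were lost without Δ*atfA*Δ*atfB* replicate 3.

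On MSB, Δ*atfA* conidia had 34 members lower and 8 higher than the libraries labelled Δ*atfB*, with 12.6% and 10.3% of all genes, and without scaling 31 and 18. The split turned with the batch, since batch 1 alone gave 26 lower and 29 higher, and 21 and 23 were left without MSB replicate 3 labelled Δ*atfB*. AN0483 had 0.455, 2.23 and 3.13 RPKM in Δ*atfA*, against 298, 375 and 968 RPKM (log2 fold change −8.38 ± 0.64 SE, adjusted p = 2.2e-09). AN6457, AN10977 and AN11089 followed, and AN6831, AN11702, AN8548 and AN10403 were the most raised, by 2.51 to 3.55 on the log2 scale. Δ*atfA*Δ*atfB* conidia on MSB had 22 members lower and 25 higher than those labelled Δ*atfB*, with 12.8% and 11.2% of all genes. AN2116 had 546, 823 and 80.8 RPKM in Δ*atfA*Δ*atfB*, against 9.39, 7.73 and 33.5 RPKM (log2 fold change 3.78 ± 1.00 SE, adjusted p = 0.0048), and AN8434, AN8435 and AN7268 were higher by 3.18 to 3.39 on the log2 scale. From batch 1 alone 77 members were higher there. Without MSB replicate 3 labelled Δ*atfB* 66 were higher, and without replicate 1 or 2 of that group 15. Without scaling the split was 21 lower and 45 higher. Between Δ*atfA*Δ*atfB* and Δ*atfA* on MSB, 7 members were higher and none lower, with 0.651% and 0.463% of all genes, led by AN10431 with 26.6, 25.8 and 14.4 RPKM against 0.172, 0.772 and 0.0468 (log2 fold change 6.04 ± 0.80 SE, adjusted p = 0.00087). DESeq2 called 23 higher and limma 9 and 10 with pseudocounts of 0.1 and 1, neither called any lower, and 4 members had an unadjusted p below 0.05 in that direction. Leaving out Δ*atfA* replicates 1, 2 or 3 on MSB left 3, 3 and 4 higher, and leaving out Δ*atfA*Δ*atfB* replicates 1, 2 or 3 gave 1, 2 and 12.

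The response to MSB itself differed between Δ*atfA* and the libraries labelled Δ*atfB* for 5 members, all with the less negative or positive change in Δ*atfA*, against 0.523% of all genes in that direction and 0.72% in the other. They were AN11079, AN8439, AN6831, AN6834 and AN3573, the last named after its value was seen. Between Δ*atfA*Δ*atfB* and the libraries labelled Δ*atfB* only AN6834 differed, higher in Δ*atfA*Δ*atfB*, against 0.0394% of all genes higher and 0.00986% lower. By DESeq2 the calls were 7 higher and 3 lower in the first test and 6 in the second, and 7 members had an unadjusted p below 0.05 for a lower response in Δ*atfA*. From batch 1 alone 39 and 38 members had a higher response in Δ*atfA* and Δ*atfA*Δ*atfB*, and without MSB replicate 3 labelled Δ*atfB* 17 and 4 did. Most other single libraries, left out, reduced the first count to 2 or 3, except that 11 were left without Δ*atfA* MSB replicate 3. The second rose to 5 without untreated replicate 2 labelled Δ*atfB* and to 8 without Δ*atfA*Δ*atfB* MSB replicate 3. With the replicate number as a block the first count was 2, AN6831 and AN6834, and AN11079 and AN8439 had adjusted p-values of 0.06 and 0.058. For the *mdp* genes no such difference was called in either test with both batches, while from batch 1 alone 3 and 4 of the 10 had a higher response in Δ*atfA* and Δ*atfA*Δ*atfB*.

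Some developmental marker genes moved with the treatment in the same libraries, and others did not. In the control the spore gene *conJ* overlapped, with 10228.5, 9651 and 12041 RPKM on MSB against 11250, 10858.5 and 10504 untreated. In Δ*atfA* the conidiophore gene *medA* was lower on MSB (log2 fold change −0.84 ± 0.23 SE). There *stuA*, another conidiophore gene, changed little (log2 fold change −0.09 ± 0.24 SE), and neither was called. Conidiophore regulator *brlA* had 477, 433 and 360.2 RPKM on MSB against 291, 259 and 238 untreated in Δ*atfA*, 275, 251 and 97.7 against 98.6, 112.8 and 77.1 in the libraries labelled Δ*atfB*, 414, 367 and 279 against 249, 219 and 199.6 in Δ*atfA*Δ*atfB*, and 317, 321 and 162 against 53.03, 84.05 and 82.3 in the control. Summed over 6 conidiophore genes, control libraries held 325 to 609 RPKM on MSB and 135 to 179 RPKM untreated. In Δ*atfA* the range was 807 to 966 RPKM against 607 to 798 RPKM, in the libraries labelled Δ*atfB* 228 to 518 RPKM against 177 to 303 RPKM, and in Δ*atfA*Δ*atfB* 684 to 988 RPKM against 615 to 683 RPKM. The spore coat gene *rodA* was also higher on MSB in every batch of every strain. The spore gene *cetA* had the opposite order, with 5615, 5348 and 8883 RPKM on MSB against 19761, 18059.6 and 18952 untreated in the control and 1097, 1171 and 2172 against 2760.1, 2338 and 2959 in the libraries labelled Δ*atfB*, where the change of −0.96 on the log2 scale did not reach a call. In Δ*atfA* its batch 1 libraries on MSB were lower and the batch 2 library was higher than untreated, with 1631, 1524 and 3924 against 3449, 3274 and 3705 RPKM. The MSB replicate 3 labelled Δ*atfB* had 97.7 RPKM of *brlA*, within its untreated range.

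Of the 4 Hülle cell and sexual development genes, *mutA* is a member and the others had the following levels in the control. The sexual regulator *nsdD* had 33.6, 35.4 and 46.9 RPKM on MSB against 41.8, 43.3 and 35.6 untreated, *steA* 51.8, 55.7 and 42.3 against 38.5, 37.3 and 52.2, and *nosA* 16.3, 15.1 and 12.01 against 23.2, 17.6 and 16.6. In Δ*atfA* *nosA* fell (log2 fold change −1.36 ± 0.28 SE, adjusted p = 0.0014). None of the 4 was at 0 in a conidial group. Among the mutants, Δ*atfA* had 6 of 12 spore genes, 2 of 6 conidiophore genes and 2 of 5 hyphal growth genes called higher on MSB, the libraries labelled Δ*atfB* 3, 2 and 0, and Δ*atfA*Δ*atfB* 0 of each list. Hyphal growth genes had median log2 fold changes of 0.59 in Δ*atfA*, 0.63 for the label Δ*atfB* and 0.86 in Δ*atfA*Δ*atfB*, and conidiophore genes of 0.58, 0.78 and 0.62. The part of spore maturity or of other cells among the conidia in the members' fall was not tested.

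**Figure D4:**
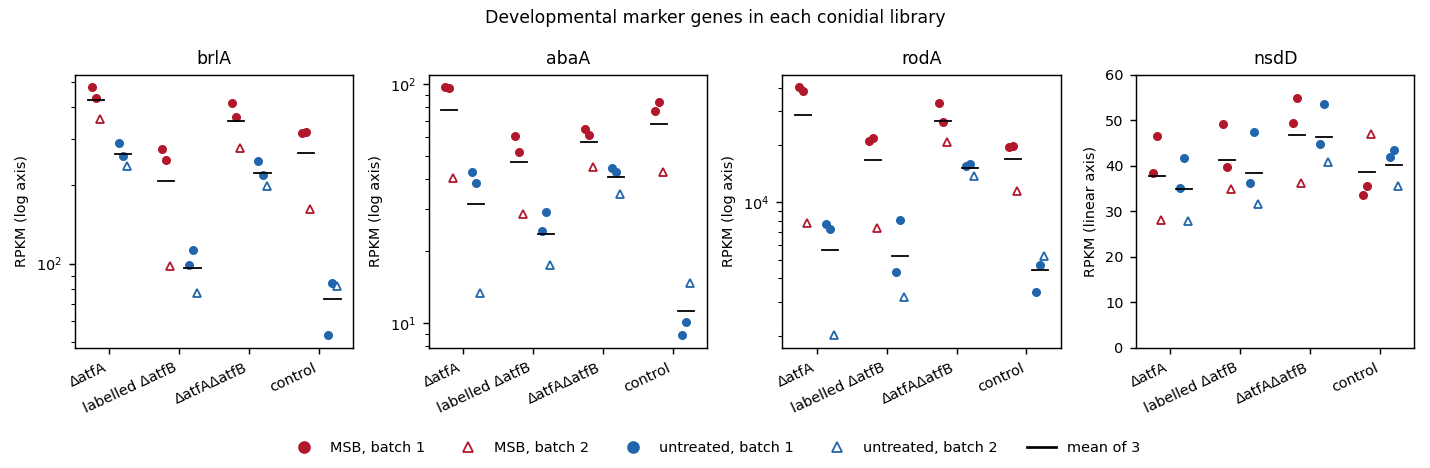
RPKM of the conidiophore regulators *brlA* and *abaA*, the spore coat gene *rodA* (log axes) and the sexual regulator *nsdD* (linear axis) in the 24 conidial libraries, with MSB-treated libraries (red) left of untreated ones (blue), circles for batch 1, triangles for batch 2 and a line for the mean of 3. *brlA*, *abaA* and *rodA* have a higher mean on MSB in each strain, and *nsdD* shows overlapping values.

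In mycelia most members were scarcely read. The mycelia came from younger cultures than the conidia, and the study handled them separately and did not compare their transcriptomes. The levels are therefore set side by side only as a description. Of the 135, 58 did not reach 0.5 RPKM in 3 mycelial libraries, and in untreated control mycelia 68 averaged below 0.5 RPKM and 18 at least 10 RPKM. *mutA* had 0.647, 0.971 and 0.411 RPKM on MSB and 0.549, 0.867 and 0.391 untreated in control mycelia, and the 10 *mdp* genes together 1.90, 1.76 and 2.37 RPKM on MSB and 1.53, 1.53 and 1.70 RPKM untreated. Among the 18 were *dlpA*, AN0468, *calA*, *agd3*, *amyD* and AN4438. The xanthone and glucanase genes were thus described mainly from conidia. In Δ*atfA* mycelia *mutA* was called higher on MSB (log2 fold change 1.35), with 0.695, 0.634 and 0.362 against 0.218, 0.199 and 0.225 RPKM. *xptA* was called higher on MSB in Δ*atfB* and Δ*atfA*Δ*atfB* mycelia (log2 fold changes 2.35 and 1.75), and AN7999 lower in Δ*atfB* (−1.41). Set against untreated Δ*atfB* mycelia, *xptA* was called higher in untreated Δ*atfA* and Δ*atfA*Δ*atfB* (2.33 and 1.64) and AN7999 lower (−1.19 and −1.1).

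For the 77 members tested in mycelia, 15 fell and 15 rose on MSB in Δ*atfA*, against 7.53% and 9.92% of 9199 genes. In Δ*atfB* mycelia 19 fell and 10 rose, against 7.03% and 6.7%, and in Δ*atfA*Δ*atfB* 9 fell and 8 rose, against 6.13% and 6.58%. Median log2 fold changes over the members were 0.36, −0.27 and 0.07, and over all genes 0.00, −0.01 and 0.00. Every MSB library lay below every untreated one for 21 members in Δ*atfA*, 30 in Δ*atfB* and 17 in Δ*atfA*Δ*atfB*, against 29.5%, 34.8% and 23.8% of all genes, and above for 27, 14 and 23, against 28.1%, 26.4% and 26.3%. A member that passed the filter only where it was high had to differ, so these counts are descriptions.

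Several mycelial changes were large. *agd3* had 7.87, 5.90 and 5.38 RPKM on MSB against 88.7, 76.9 and 73.9 untreated in Δ*atfA* mycelia (log2 fold change −3.63 ± 0.21 SE, adjusted p = 2.0e-11), 96.2, 102.5 and 147 against 429.8, 436 and 422 in Δ*atfB*, and 16.9, 21.5 and 10.96 against 189.7, 179 and 184 in Δ*atfA*Δ*atfB*. It fell in all 3 mutants without overlap. *calA* had 129.5, 132 and 138 RPKM against 506, 471 and 464 in Δ*atfB* mycelia (log2 fold change −1.81 ± 0.10 SE, adjusted p = 3.1e-11) and fell in Δ*atfA* too, by 1.37 on the log2 scale. AN0501, whose orthologs act in fumiquinazoline synthesis, had 0.0478, 0.0666 and 0.0294 RPKM against 1.53, 1.60 and 2.79 in Δ*atfA* mycelia (log2 fold change −5.26 ± 0.42 SE, adjusted p = 1.7e-09). AN7222, AN8370 and AN10403 fell in Δ*atfB* by 3.15 to 3.49 on the log2 scale, and AN7222 had 1.68, 1.80 and 2.56 RPKM against 35.6, 14.5 and 20.5. AN8624, which rose on MSB in Δ*atfA* conidia, fell in Δ*atfA* mycelia, with 0.122, 0.0849 and 0.0750 RPKM against 0.771, 2.26 and 5.06 (log2 fold change −4.71 ± 1.28 SE, adjusted p = 0.0038).

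Other members rose in mycelia on MSB. AN10431 had 1.14, 1.09 and 1.54 RPKM on MSB against 0.0322, 0 and 0 in Δ*atfA*, 3.30, 2.51 and 3.52 against 0.0354, 0 and 0.0255 in Δ*atfB*, and 1.77, 1.80 and 3.32 against 0, 0.0350 and 0 in Δ*atfA*Δ*atfB*, and the rise was called in each. AN3872 had 9.92, 12.04 and 14.7 RPKM against 1.12, 1.57 and 0.663 in Δ*atfA* (log2 fold change 3.49 ± 0.57 SE, adjusted p = 3.0e-05) and was called higher in Δ*atfB* and Δ*atfA*Δ*atfB* as well. *amyD* rose in Δ*atfA* mycelia (log2 fold change 1.81 ± 0.11 SE, adjusted p = 2.9e-11), whereas AN10977 rose in Δ*atfB* with 110.9, 46.8 and 10.3 RPKM against 8.69, 9.85 and 5.42 (log2 fold change 2.85 ± 0.56 SE, adjusted p = 0.00035). *mdpL* was called higher in Δ*atfA* mycelia at low levels, 0.862, 1.28 and 1.24 RPKM against 0.156, 0.0855 and 0.0346. AN10431 and *mdpL*, near 0 untreated, could pass the filter through the MSB libraries where they were high. The same holds for AN0501 with its untreated libraries, so the calls of such genes are descriptions, like the counts. In Δ*atfB* mycelia the 10 rises became 16 without MSB replicate 3. In control mycelia, whose libraries the selection used, 32 of the 77 members had every MSB library below every untreated one and 17 above, against 33.4% and 24.4% of all genes.

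Between untreated mycelia, Δ*atfA* had 24 members lower and 4 higher than Δ*atfB*, against 9.37% and 3.65% of all genes, and Δ*atfA*Δ*atfB* 22 lower and 5 higher, against 7.44% and 3.55%. As with the MSB counts, a member could pass the filter only through the group where it was high, so these counts are descriptions too. AN0468 had 5.01, 5.62 and 4.83 RPKM in Δ*atfA* mycelia and 7.88, 7.65 and 7.02 in Δ*atfA*Δ*atfB*, against 119.9, 105.9 and 73.7 in Δ*atfB* (log2 fold change −4.22 ± 0.48 SE, adjusted p = 5.3e-07, for Δ*atfA*). *amyD* had 5.84, 5.50 and 5.81 RPKM in Δ*atfA*, against 34.8, 32.3 and 30.2 in Δ*atfB* (log2 fold change −2.44 ± 0.11 SE, adjusted p = 1.6e-12). In Δ*atfA*Δ*atfB* mycelia, which also lack *atfA*, *amyD* was not called against Δ*atfB* (log2 fold change −0.32 ± 0.10 SE, adjusted p = 0.015). AN0468 and *amyD* were thus low in Δ*atfA* untreated mycelia as in Δ*atfA* conidia, where *amyD* had 1.24, 1.32 and 2.51 RPKM against 26.7, 19.4 and 41.6 in those labelled Δ*atfB* (log2 fold change −4.58 ± 0.37 SE, adjusted p = 5.0e-09).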

How the data were processed

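RNA was sequenced from conidia and mycelia of 4 strains with TruSeq libraries, 3 per group and 48 in all. Per the labels and the study's methods, the authors checked reads with FastQC, aligned them with HISAT2 2.1.0 and deposited, for each gene and library, raw read counts and RPKM values that the authors made with edgeR's rpkm function, beside an other column with gene length. The counting tool, the annotation version and the use of strand were not given in the sources used here, so overlapping and antisense genes cannot be told apart. RPKM recomputed from the deposited counts differed by a relative 3.1e-14 at most. RPKM depends on the total of each library, and the RLE factors, 0.692 to 1.35 in conidia and 0.966 to 1.05 in mycelia, correct the tests but not the RPKM values. In untreated conidia the mean factor was 0.704 in the control, 0.903 for the label Δ*atfB*, 1.23 in Δ*atfA* and 1.28 in Δ*atfA*Δ*atfB*. Beside the control, RPKM of conidia without *atfA* therefore lies higher than scaled values would.

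Members came from mean RPKM by the rule in the report. Members, gene lists and named genes were chosen with earlier results of these data known. The report names the 8 most abundant members and the 8 of largest fold, 3 on each side of the threshold, the 5 most changed of those called in each direction of each MSB test in conidia (4 between mutants, 3 in mycelia), up to 4 per list, members with a symbol, and *atfA* and *atfB*. Genes with at least 0.5 RPKM in 3 libraries of a cell type were tested on counts with edgeR 4.0.16 (R 4.3.3), RLE scaling and the quasi-likelihood F test, with a model of 8 groups per cell type and, for conidia, the batch. P-values were adjusted by Benjamini-Hochberg over all genes tested, and a call needed a log2 fold change of over 1 in size at an adjusted p under 0.05. All adjusted p-values in the report are from this test, and SE stands for standard error. Alternatives were DESeq2 1.42.0, limma 3.58.1 with pseudocounts of 0.1 and 1, TMM scaling, no scaling, other filters, no batch term, batch 1 alone, the replicate number as a block, and leaving out each library. The tests were run on simulated counts first. Neighbours and names came from the RefSeq table of ASM1142v1, which matched 10029 gene IDs and 124 members. Comparisons of mutants with the control were not tested, since they share the libraries that chose the members.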

Additional observations from a re-analysis of the deposited data

Results flagged for a closer look

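In 6 cases the response of a member to MSB in conidia differed between mutant strains, by the edgeR test of the difference itself (adjusted p below 0.05). The difference of the log2 fold changes, Δ*atfA* minus the libraries labelled Δ*atfB*, was 4.93 for AN11079, 4.55 for AN8439, 3.00 for AN6831, 1.96 for AN6834 and 1.82 for AN3573. For the Δ*atfA*Δ*atfB* double mutant minus the libraries labelled Δ*atfB* it was 2.28 for AN6834. AN11079 and AN8439 are neighbours on chromosome V. AN11079 had 9.65, 9.83 and 0.210 RPKM on MSB against 0.0859, 0.298 and 0.502 untreated in Δ*atfA* conidia, and 7.29, 3.71 and 7.02 against 9.42, 18.4 and 9.21 in those labelled Δ*atfB*. AN6831 had 92.98, 106.4 and 45.9 against 32.4, 36.8 and 18.9 RPKM in Δ*atfA*, and 3.93, 4.86 and 7.29 against 12.3, 10.6 and 20.9 RPKM in those labelled Δ*atfB*. AN6834, for a protein with a transporter domain, had 14.7, 14.1 and 22.4 against 9.77, 8.82 and 9.75 RPKM in Δ*atfA*, 19.6, 22.6 and 26.9 against 43.5, 36.9 and 63.8 RPKM in the libraries labelled Δ*atfB*, and 8.11, 8.55 and 10.97 against 4.63, 4.33 and 3.45 RPKM in Δ*atfA*Δ*atfB*. The calls of AN11079 and AN8439 were lost without most single libraries, without the batch term and with the replicate number as a block. Replicate 3 on MSB labelled Δ*atfB*, which stood apart, is in every one of these tests, and its part was not tested beyond the counts without it.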

How the results depend on the processing

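Values here are the percent of the members tested that were called in either direction, of 135 in conidia and 77 in mycelia. Shares of all genes under these settings are not given, so a shift may not be particular to the members. In the libraries labelled Δ*atfB* on MSB, 30.4% became 0.741% without a batch term and 86.7% in batch 1 alone. In the double mutant 4.44% became 10.4% by DESeq2, 1.48% without a batch term and 17.8% in batch 1 alone. For Δ*atfA*Δ*atfB* against the libraries labelled Δ*atfB* on MSB, 34.8% became 55.6% and 56.3% by limma with pseudocounts of 0.1 and 1, and 71.1% in batch 1 alone. For Δ*atfA*Δ*atfB* against Δ*atfA* on MSB, 5.19% became 17.04% by DESeq2 and 21.5% in batch 1 alone. The difference in response between Δ*atfA* and the libraries labelled Δ*atfB* gave 7.41% by DESeq2, 1.48% without a batch term and 32.6% in batch 1 alone, in place of 3.7%. That of Δ*atfA*Δ*atfB* gave 4.44% by DESeq2, 1.48% by limma with a pseudocount of 1 and 28.1% in batch 1 alone, in place of 0.741%. In mycelia, limma with a pseudocount of 1 gave 18.2% for MSB in Δ*atfB*, 12.99% for MSB in Δ*atfA*Δ*atfB* and 20.8% for untreated Δ*atfA* against Δ*atfB*, in place of 37.7%, 22.1% and 36.4%. The cause of these shifts was not tested.

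Leaving out single libraries gave 15.6 to 28.9% for MSB in Δ*atfA* conidia, 0 to 78.5% in those labelled Δ*atfB* and 0.741 to 3.7% in Δ*atfA*Δ*atfB*. For Δ*atfA* against the libraries labelled Δ*atfB* it gave 42.2 to 54.8% untreated and 25.2 to 39.3% on MSB, for Δ*atfA*Δ*atfB* against them 25.9 to 37.8% and 28.1 to 62.96%, and for Δ*atfA*Δ*atfB* against Δ*atfA* 13.3 to 38.5% and 0.741 to 8.89%. The differences in response had 1.48 to 12.6% for Δ*atfA* and 0.741 to 5.93% for Δ*atfA*Δ*atfB*. In mycelia the ranges on MSB were 33.8 to 38.96% in Δ*atfA*, 28.6 to 45.5% in Δ*atfB* and 18.2 to 24.7% in the double mutant, and untreated 28.6 to 37.7% for Δ*atfA* and 29.9 to 36.4% for the double mutant against Δ*atfB*. The rule found 77.04 to 111.1% of the number of members without single control libraries, 128.9% with scaled RPKM, 84.4% with a pseudocount of 1 and 121.5% from batch 1.

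No single-gene result turned its direction, 57 of 87 were called under every alternative, and 132 of 1378 values were no longer called. Deviations of same-numbered libraries from their group means, with the batch not removed, correlated at 0.227 to 0.376 in Δ*atfA* conidia, where all 3 pairs exceeded 0.1, and at −0.158 to 0.488 over the 4 strains in conidia, where 7 of 12 pairs did. In mycelia they correlated at −0.227 to 0.107. The highest correlation was with the own number in 10 of 12 conidial and 5 of 12 mycelial pairs. Only in Δ*atfA* conidia did all 3 pairs exceed 0.1. In the libraries labelled Δ*atfB* the pairs correlated at 0.087 to 0.253, each highest with its own number. Replicate 3 of every conidial group is batch 2, so in conidia pairing by number and batch cannot be told apart by this measure. With the replicate block, the difference in response between Δ*atfA* and the libraries labelled Δ*atfB* had 1.48% called, the double mutant's falls were 3 in place of 5, and every other total of calls stayed within 1.5 times. Depth limits members below 1 RPKM in mycelia, and 1 library per group limits values within batch 2.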
